A study of Mus musculus with 95 samples.

Results

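The 18 libraries numbered 17 to 24 and 49 to 58 were examined here as a block within 95 RNA-seq libraries of mouse pancreatic islets, the endocrine part of the pancreas. They were chosen on a measured value: each belongs to 1 of 2 stretches of library numbers in which the transcript of Nnt was low, so 18 of 95 libraries were set against the other 77. The series used mice of the inbred strains that founded the Diversity Outbred stock. The labels give the same tissue and the same diet, high in fat and sugar and listed at 45% fat, for all 18 and all 77. They name no strain, genotype, sex, age or control diet for any library, so the 18 and the 77 are sets defined by number and by Nnt, not treatment groups, and values below are medians and ranges with no p-values. Nothing in the labels says that each library came from its own animal.

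Nnt encodes nicotinamide nucleotide transhydrogenase, an enzyme of the inner mitochondrial membrane that uses the proton gradient to reduce NADP to NADPH at the expense of NADH. Mitochondrial NADPH feeds the glutathione and thioredoxin systems that remove hydrogen peroxide, and beta cells are known for low levels of other peroxide-removing enzymes. The mouse reference assembly was made from C57BL/6J, an inbred strain known to carry a deletion of several exons within Nnt and to differ in insulin secretion from substrains with an intact gene. Whether the 18 libraries came from that strain was not tested.

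Total estimated counts of the 18 ran from 16411809 to 31136421 with a median of 28208404, against a median of 26344713 in the other 77. Levels are given as CPM, a gene's estimated count per 1000000 counts of its library. The 18 held islets by their defining markers, with a median of 121268 CPM for Ins2 (77 others, 110631) and 9815 CPM for Gcg (77 others, 13820). Transcripts of acinar cells, the digestive enzyme cells around islets, took from 1.12% to 45.0% of counts in the 18, and 4 of the 18 (libraries 21, 53, 54 and 55) were above 25%, as were 9 of the 77. Each of the 18 had either Xist above 100 CPM or the Y-linked Ddx3y above 10 CPM and never both, 9 libraries of each kind, 4 and 4 in the run of 17 to 24 and 5 and 5 in the run of 49 to 58. The 9 with Xist had a median acinar share of 21.1% and the 9 without had 2.53%, with overlapping ranges of 4.23% to 45.0% and 1.12% to 17.3%. What part sex or acinar share has in the values below was not tested.

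Promoter sequence is printed here for 3 protein-coding genes that recur in the results and share under 2% of their 31-base words with other genes, Angptl7 and Trnp1 as genes low in the 18 and Pttg1 as a gene high in them. Each stretch holds 250 bases before and 50 after a RefSeq start site, 5′ to 3′ on the gene's own strand, on GRCm38.p6. The windows are chr4:148500413-148500712 for Angptl7, chr4:133498501-133498800 for Trnp1 and chr11:43425932-43426231 for Pttg1, and all 3 lie on the minus strand. The Pttg1 window lies wholly inside the gene as the deposited annotation places it (43420250 to 43426251). The letters before its RefSeq start are thus within that annotated gene. Capitals mark CCAAT on either strand (ATTGG when read from the other strand).
Angptl7: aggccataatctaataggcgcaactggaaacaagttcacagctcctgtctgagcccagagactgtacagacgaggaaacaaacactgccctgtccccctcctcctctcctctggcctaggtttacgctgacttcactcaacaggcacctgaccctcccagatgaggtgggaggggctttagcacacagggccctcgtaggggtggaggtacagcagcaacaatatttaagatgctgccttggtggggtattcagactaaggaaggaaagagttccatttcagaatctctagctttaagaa
Trnp1: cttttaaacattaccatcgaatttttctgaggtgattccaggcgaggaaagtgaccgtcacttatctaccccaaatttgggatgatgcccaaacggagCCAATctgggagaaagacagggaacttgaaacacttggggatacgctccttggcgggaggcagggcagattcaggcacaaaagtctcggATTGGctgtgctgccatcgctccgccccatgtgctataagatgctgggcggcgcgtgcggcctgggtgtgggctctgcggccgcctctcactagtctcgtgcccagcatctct
Pttg1: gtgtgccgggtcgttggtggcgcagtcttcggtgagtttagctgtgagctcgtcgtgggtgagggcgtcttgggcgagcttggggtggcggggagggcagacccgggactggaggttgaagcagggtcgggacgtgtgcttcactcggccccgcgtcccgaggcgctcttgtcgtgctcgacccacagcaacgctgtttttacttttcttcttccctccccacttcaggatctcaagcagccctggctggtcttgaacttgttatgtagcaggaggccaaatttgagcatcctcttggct
The Trnp1 window holds the CCAAT letters on each strand, and the other 2 windows do not. The letters TATAAA were searched on both strands as well and were in none of the 3. Over 32851 RefSeq promoter windows of this length, 37.4% hold CCAAT and 13.6% hold TATAAA. The Angptl7 window has 4 CpG dinucleotides, the Trnp1 window 16 and the Pttg1 window 20, against a median of 7 over all windows. These are reference letters and show nothing of the alleles in the libraries.

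Nnt (ENSMUSG00000025453, chromosome 13, 119335448 to 119408997 on the minus strand, GRCm38) chose the libraries, and its values are a description. In libraries 17 to 24 its levels were 20.5, 24.0, 21.3, 18.5, 17.2, 24.8, 25.4 and 20.4 CPM. In libraries 49 to 58 they were 24.6, 24.2, 23.8, 26.2, 18.7, 15.3, 16.6, 25.0, 19.5 and 26.9 CPM. The transcript was therefore detected in each of the 18, at a median of 22.6 CPM against 58.3 CPM in the 77, or 38.7% of the others' median. The 3 lowest of the 18, libraries 54, 55 and 21, were 3 of the 4 with over 25% acinar counts. Just outside the 18, library 2 had 24.9 CPM, below 4 of the 18, and library 7 had 28.0 CPM, while the next lowest of the others stood at 34.3 CPM. Library 2 was most like library 3 over all genes (Spearman rho 0.984).

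**Figure D1:**
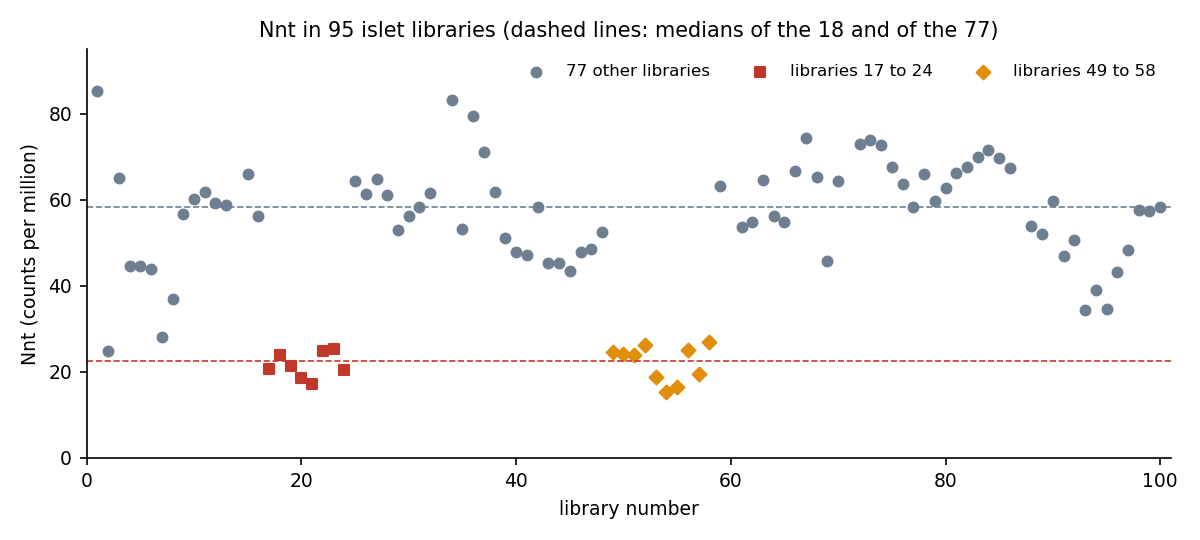
Nnt in CPM (vertical axis, from 0) by library number (horizontal axis), 1 point per library; squares are libraries 17 to 24, diamonds 49 to 58 and circles the 77 others, and dashed lines are the medians of 22.6 and 58.3 CPM. The 18 lie between 15.3 and 26.9 CPM, and library 2 at 24.9 CPM is the only other library within that range.

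The count table has 1 gene named Nnt, while the GENCODE M21 annotation has a second entry of that name at the same place, which holds 47.1% of the first entry's 31-base words. How reads were divided between such entries is not given in the sources used here, so the level of Nnt is uncertain where they overlap. The genes beside Nnt did not move with it. Of 13 tested genes within 1 Mb, none separated the 18 from the 77, and 1 differed 2-fold by medians, the predicted gene Gm7120 (6.18 against 2.79 CPM, with 37 of the 77 inside the range of the 18). Hmgcs1, an enzyme of sterol synthesis, had 62.9 against 59.7 CPM, and Paip1, a partner of the poly(A)-binding protein, 42.6 against 45.1 CPM. Ccl28, a chemokine of mucosal epithelia, had 19.8 CPM in the 18 and 10.0 CPM in the 77, with 42 others overlapping.

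Across 15281 autosomal genes, 10 were set apart, meaning that all 18 values lay on 1 side of all 77 and the medians differed at least 2-fold. All 10 were lower in the 18 and 0 were higher, 0.0654% of the genes tested. Differences below are of medians on the log2(CPM + 0.5) scale, which understates changes of genes near 0. The 10 were Angptl7, Trnp1, Unkl, Atp10d, the pseudogenes Tdg-ps, Tma7-ps and Gm10499, the noncoding Gm26858, and 2 entries named Hist2h2bb. By kind, 4 of the 10 were protein-coding and 4 were pseudogenes, while 89.1% of all tested genes were protein-coding and 2.68% were pseudogenes.

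Angptl7, a secreted protein of the angiopoietin-like family (chromosome 4, 148495183 to 148500460), had the largest difference of the 10. It ran from 2.89 to 8.71 CPM with a median of 5.46 in the 18, and from 24.2 to 278.9 CPM with a median of 100.8 in the 77, a difference of -4.09. Its levels were 2.89, 4.22, 6.32, 4.93, 3.97, 7.19, 5.20 and 6.88 CPM in libraries 17 to 24, so no library of that run came near the others. The run of 49 to 58 had 3.44, 4.93, 6.77, 5.85, 6.39, 4.05, 3.93, 8.71, 6.22 and 5.72 CPM, a range much like that of the first. Among the others the lowest stretch was 86 to 90, with a median of 32.99 CPM over 4 libraries. Angptl7 lies inside Mtor on the opposite strand. Mtor itself, the kinase of the growth pathway of that name, had 50.9 CPM in the 18 and 51.8 CPM in the 77.

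Trnp1, a nuclear protein known from the expansion of neural progenitors (chromosome 4, 133491100 to 133498550), ran from 0.589 to 2.60 CPM in the 18 and from 2.71 to 36.4 CPM in the 77. Its medians were 1.46 and 17.7 CPM, a difference of -3.21. The 4 others closest to the 18 were libraries 86 to 90, at 2.71 to 5.52 CPM. Unkl, a zinc finger and RING finger protein related to unkempt (chromosome 17, 25188397 to 25234443), ran from 4.56 to 7.24 CPM in the 18 and from 8.03 to 33.4 CPM in the 77, a difference of -1.25. Unkl overlaps Gnptg on the opposite strand, so its level holds some uncertainty; Gnptg had 84.9 and 93.8 CPM. Atp10d, a phospholipid-transporting ATPase that the annotation lists as a polymorphic pseudogene (chromosome 5, 72203329 to 72298775), ran from 1.30 to 3.31 CPM in the 18. The 77 ran from 3.34 to 51.9 CPM, so the gap between the 2 sets was narrow at this gene.

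The other set-apart genes were close to 0 in the 18. Tdg-ps, a processed copy of the DNA glycosylase gene Tdg, had 0 to 0.117 CPM in the 18 and 1.31 to 6.54 CPM in the 77, and the widest gap of the 10. Both Hist2h2bb entries, a histone H2B gene and a noncoding transcript at the same place on chromosome 3, stayed at or below 0.187 CPM in the 18; the noncoding entry had 1.39 to 21.4 CPM in the 77. Gm10499, a pseudogene in the H2 region of chromosome 17 (36141758 to 36145923), had 0.145 to 0.989 CPM against 1.43 to 38.3 CPM. Gm26858, which lies inside Wiz on the opposite strand and shares 98.8% of its 31-base words with that gene, had 0 to 0.298 CPM against 0.419 to 8.46 CPM. Tma7-ps, a processed copy of Tma7, had a median of 0.995 CPM against 7.64 CPM.

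**Figure D2:**
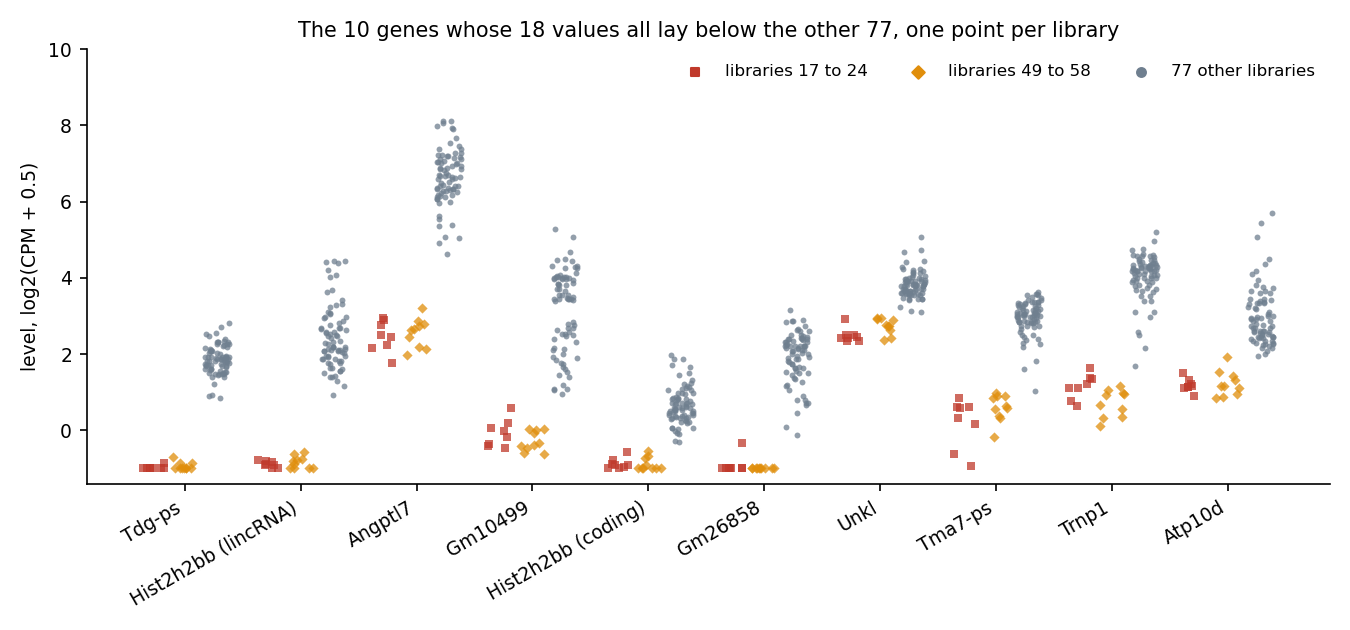
Levels of the 10 set-apart genes as log2(CPM + 0.5), 1 point per library, with libraries 17 to 24, libraries 49 to 58 and the 77 others side by side for each gene. The 18 lie below the 77 at each gene, from Angptl7 (8.71 CPM at most against 24.2 at least) to the narrow gap of Atp10d (3.31 against 3.34 CPM).

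No gene met the same rule in the higher direction, but 5 came close, with at most 4 of the 77 at or above the lowest of the 18. Pttg1, the securin that holds separase inactive until anaphase (chromosome 11, 43420250 to 43426251), had 7.23, 7.32, 8.35, 7.10, 5.62, 7.98, 9.45 and 7.83 CPM in libraries 17 to 24. In libraries 49 to 58 it had 9.67, 7.55, 10.1, 8.48, 4.56, 3.98, 3.76, 7.05, 6.87 and 9.60 CPM. The 77 had a median of 0.448 CPM, and only libraries 97, 99 and 100 reached the range of the 18, with 6.84 CPM at most. The 3 lowest of the 18 were libraries 53, 54 and 55, which are also the 3 of that run above 25% acinar counts.

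Rab6b, a small GTPase of Golgi traffic (chromosome 9, 103111787 to 103185276), ran from 20.5 to 66.0 CPM with a median of 42.6 in the 18 and from 1.58 to 30.0 CPM with a median of 7.00 in the 77. Only libraries 1 and 2 overlapped. The other 3 were Trim12a, a relative of the antiviral factor Trim5 (2.26 against 0.260 CPM, library 36 overlapping), the uncharacterised transcript Gm43778, and Smim6, a small membrane protein. With library sizes corrected for composition by TMM (trimmed mean of M values), Pttg1, Rab6b, Trim12a, Gm43778 and Nmnat3, a mitochondrial enzyme of NAD synthesis (9.79 against 4.53 CPM), were set apart as higher. With that scaling 9 genes were set apart as lower, 7 of them among the 10; Unkl, Trnp1 and Tma7-ps were not, and Jakmip2 and Wdfy1, an adaptor of Toll-like receptor signalling (17.3 against 44.4 CPM), were added. Without the 13 libraries above 25% acinar counts, 16 were lower and 4 higher, the latter being Pttg1, Rab6b, Trim12a and Gm43778.

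By medians alone 152 genes were at least 2-fold higher in the 18 (0.995% of those tested) and 320 at least 2-fold lower (2.09%). The median difference over all genes was -0.11 with totals as deposited and 0.0026 after TMM scaling, under which the split was 198 higher and 247 lower. Of the 320 lower genes, 79 had at most 10 of the 77 at or below the highest of the 18. Of the 152 higher genes, 12 had at most 10 of the 77 at or above the lowest of the 18. Most of the larger differences of medians were thus shared with part of the 77. Those parts were often whole stretches of numbers. Col6a6, a chain of collagen VI, had a median of 104.5 CPM in the 18, 118.3 CPM in libraries 66 to 75, 118.5 CPM in 86 to 90 and 77.0 CPM in 1 to 8, against 2.39 CPM in 76 to 85. Myo7a, an unconventional myosin known from sensory hair cells, had 13.1 CPM in the 18 and 16.5 CPM in libraries 66 to 75, while the 77 as a whole had a median of 0.548 CPM.

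Lower genes also had partners among the 77. H2-Ea-ps, the MHC class II alpha gene listed as a polymorphic pseudogene, had 0 to 0.209 CPM in the 18. It was as low in libraries 66 to 75 (at most 0.117 CPM) and 76 to 85 (at most 0.0913 CPM), whereas the other numbers 1 to 65 had 2.88 CPM or more. Tex15, a gene of meiotic recombination and germ cell silencing, had a median of 0.423 CPM in the 18, 0.527 CPM in 66 to 75, 0.551 CPM in 86 to 90 and 10.0 CPM over the 77. Ckb, the brain form of creatine kinase, had 40.4 CPM in the 18, 35.5 CPM in 66 to 75, 30.7 CPM in 76 to 85 and 129.6 CPM over the 77. Fam107a, a stress-induced protein bound to actin, had 2.42 CPM in the 18 and 1.88 CPM in 76 to 85, against 17.8 CPM over the 77. H2-Q2, an MHC class I gene, went the other way, with 63.1 CPM in the 18, 74.0 CPM in 76 to 85, 58.8 CPM in 1 to 8 and 0.878 CPM in 25 to 32.

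Many of the low and high genes were copies of another gene, and for these the sum with the parent was examined. Atp5g2, the subunit c gene of ATP synthase, had 4.21 CPM in the 18 and 64.2 CPM in the 77, a difference of -3.78. Gm10175, a processed copy all of whose 31-base words occur in Atp5g2, had 70.96 CPM in the 18 and 5.21 CPM in the 77. Added together they came to 75.9 CPM in the 18 (42.4 to 88.0) and 86.4 CPM in the 77 (47.9 to 133.6), so the sum showed neither of these differences. Gm15487, which shares 92.9% of its words with the proton pump subunit gene Atp6v0c, had 0.634 against 21.8 CPM, and its sum with Atp6v0c was 236.0 against 239.0 CPM. Gm9493, which shares 83.7% with the ribosomal protein gene Rps7, differed: it had 36.0 against 0.342 CPM while Rps7 had 85.0 against 67.9 CPM, and the sum was 125.1 CPM in the 18 and 69.6 CPM in the 77. Tdg had 24.6 against 26.0 CPM and Tma7 had 31.5 against 31.0 CPM, so these parents of set-apart copies lay close together in the 2 sets. How the counting step divided reads between near-identical copies was not tested, and the levels of all such copies are uncertain.

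The 2 runs were next compared with each other through references that share no library: 17 to 24 against the other 23 libraries numbered 1 to 32, and 49 to 58 against the other 21 numbered 34 to 65. A gene was called in a run when its values there did not overlap the reference and the medians differed 2-fold. In 17 to 24, 84 genes were called (0.55% of those tested), 23 higher and 61 lower. In 49 to 58, 75 genes were called (0.491%), 22 higher and 53 lower. Both runs called 43 genes in the same direction (0.281%), 8 higher and 35 lower, which is 51.2% of the first list and 57.3% of the second, and 0 genes were called in opposite directions. All 84 genes of the first list differed in the same direction in the second run, 74 of them at least 2-fold, and all 75 of the second list did so in the first run, 68 of them at least 2-fold. Across the 15281 genes, which are not independent of each other, the differences of the 2 runs had a Pearson r of 0.797 and a Spearman rho of 0.654. The 2 references were themselves alike. Stretches 1 to 8 and 34 to 39 had a median Spearman rho of 0.976 between their libraries, and the other 2 pairs of stretches had 0.985 each. The 2 sets of differences are thus not independent, and what part this has in their agreement was not tested. The runs share the low Nnt that chose them, and Nnt was not taken out of these counts. It was called in 49 to 58, so it is 1 of those 75 genes and of the 68. In 17 to 24 it was not called, as library 2 of that reference overlapped, so it is not among the 43. Its place in the counts came from the choice of libraries and says nothing of agreement.

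**Figure D3:**
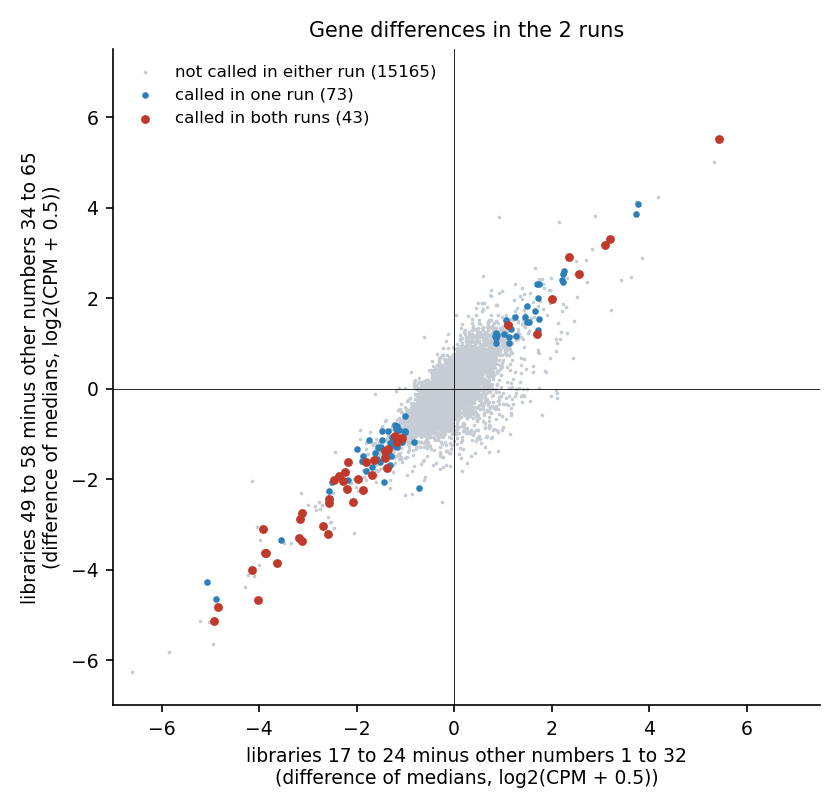
Difference of medians of each of 15281 autosomal genes on the log2(CPM + 0.5) scale in libraries 17 to 24 (horizontal axis) and in 49 to 58 (vertical axis), each against its own reference; red points are the 43 genes called in both runs and blue points the 73 called in 1 run. The red and the blue points lie at the lower left and the upper right, that is, in the same direction in both runs.

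The 8 genes called higher in both runs were Pttg1, Rab6b, Gm9493, Apof, which encodes apolipoprotein F, and the uncharacterised transcripts 2610507I01Rik, 4930481A15Rik, Gm42974 and Gm43778. Pttg1 differed by 3.09 in the first run and 3.17 in the second, and Rab6b by 2.36 and 2.90. Apof had a median of 3.07 CPM in the 18 and 0.490 CPM in the 77, differing by 2.00 and 1.97 in the 2 runs. Yet 15 of the 77 overlapped the 18 at Apof, among them those numbered 86 to 100, with up to 9.14 CPM against 4.57 CPM. Others overlapping numbered 18 at Gm42974, 9 at 2610507I01Rik, 8 at Gm9493 and 7 at 4930481A15Rik. At Pttg1, Rab6b and Gm43778 they numbered 3, 2 and 2. The runs' references hold no number above 65, so most of these libraries were outside them. Each of the 10 genes set apart from the 77 was among the 35 called lower in both runs, which the 2 rules nearly force.

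The others of the 35 fell into several kinds by what they are known to do. Genes known from neurons were Chrna4, a nicotinic acetylcholine receptor subunit (0.363 against 3.06 CPM), Nefh, the heavy neurofilament (8.54 against 28.7 CPM), and Thy1, a surface glycoprotein of neurons, T cells and fibroblasts (1.90 against 6.72 CPM). Enzymes included Usp13, a deubiquitinase (0.861 against 4.51 CPM), St6gal2, a sialyltransferase (0.0380 against 1.31 CPM), Mfng, a glycosyltransferase that acts on Notch (3.41 against 7.78 CPM), and Masp2, a protease of the lectin pathway of complement (0.276 against 6.81 CPM). Synpo2, an actin-binding protein, had 2.24 against 6.07 CPM, and Rtkn2 had 3.83 against 15.0 CPM. Ppp1r16b, a regulatory subunit of protein phosphatase 1, had 4.59 against 12.9 CPM. At each of these genes some of the 77 overlapped the 18, from 2 libraries at Synpo2 to 20 at Chrna4. These kinds were put together after the values were seen and are a description only. Masp2 overlaps Tardbp on the opposite strand and shares 53.3% of its words with it, and Tardbp had 78.7 and 88.3 CPM.

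Several of the 43 lay next to each other. Masp2 and Angptl7 are neighbours on chromosome 4, Rtkn2 and Zfp365 on chromosome 10, and Gm10499, C920025E04Rik and H2-Bl lie together among the MHC class I genes of chromosome 17. The 2 Hist2h2bb entries lie together on chromosome 3. Over the whole set, 11 of the 43 (25.6%) had another of the 43 within 1 Mb. Among the 15238 tested genes outside the 43, 8.10% had one within 1 Mb. Some of this closeness is overlap or likeness: the Hist2h2bb entries overlap each other, and H2-Bl shares 21.5% of its words and C920025E04Rik 48.4% with H2 genes or other transcripts.

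The runs also differed from each other. Set directly against 49 to 58, the 8 libraries 17 to 24 were higher without overlap and 2-fold by medians at 84 genes (0.55% of those tested) and lower at 13 (0.0851%). The same comparison between the 2 references, other numbers 1 to 32 against 34 to 65, called 0 genes, but these are 23 against 21 libraries from several stretches, where no overlap is harder to meet, so the counts cannot be compared. By medians alone the references differed 2-fold at 56 genes upward and 41 downward, and the runs at 237 and 105. The direction was shared: all 84 genes were higher and all 13 lower in the first reference as well, 25 and 5 of them at least 2-fold. The median difference of the 84 was 1.48 between the runs and 0.77 between the references. For 82 of the 84 the median of 49 to 58 was below that of its reference, and for 29 of the 84 the median of 17 to 24 was above its own.

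Of the 10 immediate early genes listed, which cells are known to switch on soon after a stimulus, 2 were among the 84, Atf3 and Nr4a1. Other genes are named for the size of their difference or were picked after their values were seen. Nr4a3, an orphan nuclear receptor, had a median of 8.37 CPM in 17 to 24 and 0.519 CPM in 49 to 58, a difference of 3.13, against 1.72 between the references. Arid5a, which stabilises inflammatory transcripts, had 59.6 and 7.12 CPM, and Csrnp1, a nuclear protein induced by axin, had 250.5 and 33.9 CPM. Il6, the cytokine, had 4.19 and 0.219 CPM. Fosl2, a subunit of the AP-1 transcription factor, had 108.5, 115.7, 107.4, 137.9, 127.1, 264.6, 313.7 and 223.9 CPM in libraries 17 to 24. In libraries 49 to 58 it had 16.7, 22.3, 31.0, 67.2, 12.6, 7.93, 11.4, 18.1, 28.8 and 27.4 CPM, with library 52 the highest. In the references Fosl2 had medians of 170.7 CPM in other numbers 1 to 32 and 63.9 CPM in 34 to 65.

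Atf3, a stress-induced transcription factor, and Nr4a1, a nuclear receptor, were also higher in the first run (Atf3 384.4 and 88.8 CPM in the runs, 344.7 and 313.4 CPM in the references). Nr4a1 had 790.2 and 214.2 CPM in the runs and 722.1 and 530.9 CPM in the references. At these 2 genes the references differed by 0.14 and 0.44 on the log2 scale, and 49 to 58 stood low. Nfkbia, the inhibitor of NF-kB, had 169.8 and 53.3 CPM, and the neutrophil chemokine Cxcl2 had 8.69 and 1.58 CPM. Krt8, a simple epithelial keratin, had 420.1 and 166.6 CPM. The 13 genes higher in 49 to 58 were led by RP24-503A2.6 (2.37 against 0.265 CPM), Dynlt1c, a dynein light chain gene (24.3 against 7.34 CPM), Gm38102, Gm37829 and Slc2a4rg-ps. Dynlt1c shares 92.4% of its words with other genes, RP24-503A2.6 shares 76.8% and Gm38102 shares 72.8%, so their levels are uncertain. Without the libraries above 25% acinar counts, which left 7 libraries in each run, 82 genes were higher in 17 to 24, 75 of them among the 84, and 107 rather than 13 were higher in 49 to 58. With TMM scaling the counts were 124 and 50. The acinar share had a median of 11.8% in 17 to 24 and 5.29% in 49 to 58. With fewer libraries no overlap is also easier to meet, and the part of acinar share in either count was not tested. Library number, and anything done in number order, cannot be told apart from the run.

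**Figure D4:**
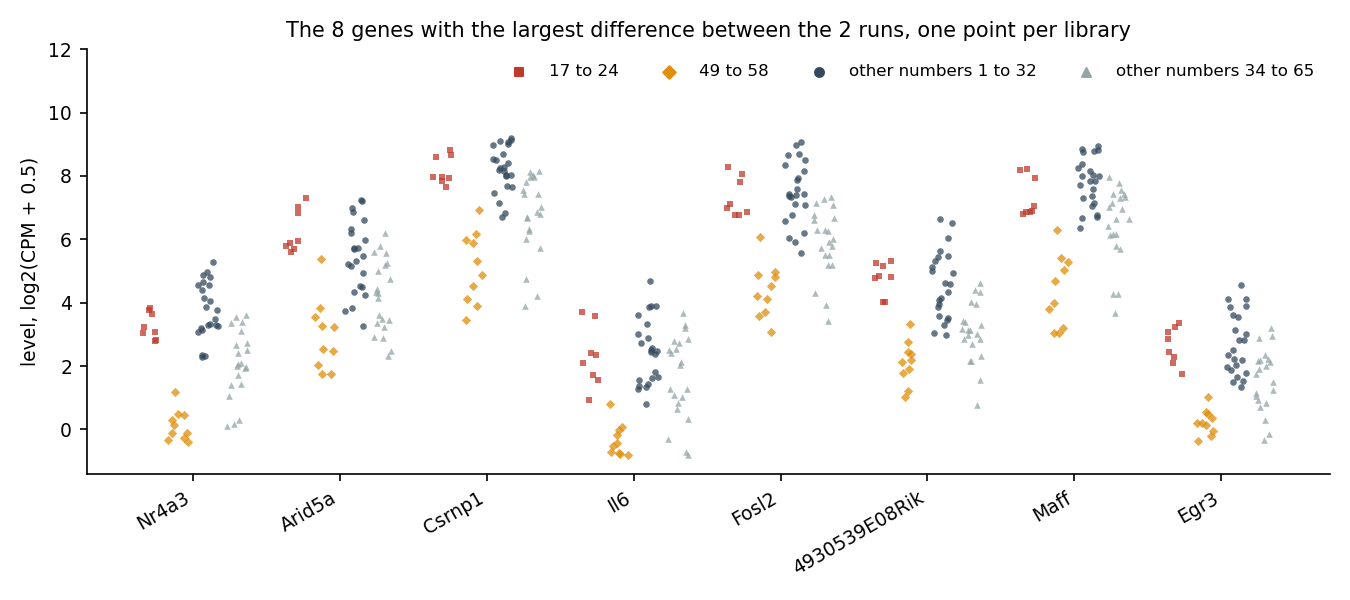
Levels as log2(CPM + 0.5) of the 8 genes with the largest difference between the 2 runs, 1 point per library, for libraries 17 to 24, 49 to 58 and the 2 references. Libraries 49 to 58 lie below 17 to 24 without overlap at each gene, and the 2 references overlap each other.

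Gene lists were then read for the 18 against the 77, beside the median of -0.11 over all genes. Over all genes 0.995% were 2-fold higher and 2.09% 2-fold lower. At those shares a count of 0 in a list of 30 genes or fewer does not set the list apart from all genes. In bulk RNA, fewer cells of a type and less RNA per cell cannot be told apart. Among 30 enzymes of mitochondrial redox balance, Nnt, which chose the libraries, was the only one that differed 2-fold, and the list's median was -0.15. Among other sources of mitochondrial NADPH, Idh2, the NADP-linked isocitrate dehydrogenase, had 102.0 against 102.4 CPM. Me3, a malic enzyme, had 4.85 against 4.90 CPM, and Glud1, glutamate dehydrogenase, 94.6 against 116.3 CPM. Of the peroxide-removing enzymes, Prdx3 had 23.5 against 25.2 CPM and Gpx1 had 49.0 against 54.6 CPM. Gsr, glutathione reductase, had 39.3 against 40.3 CPM. The largest difference upward was that of Aldh1l2, the mitochondrial folate enzyme that makes NADPH (106.4 against 77.2 CPM, a difference of 0.46), next to Mthfd2, another enzyme of that pathway (68.7 against 51.2 CPM, 0.42). Both stayed below 2-fold and overlapped widely.

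Of 25 genes of beta cell identity and 25 of the coupling of glucose to insulin release, 0 differed 2-fold in either direction. That is near the share over all genes. The medians of the 2 lists were 0.044 and -0.13. In the first list 16 medians were higher in the 18 and 9 lower. Iapp, the amyloid peptide released with insulin, had 14980 against 13808 CPM, while Ins1 had 41754 against 47943 CPM, Pdx1 120.3 against 139.7 CPM and Mafa 108.5 against 136.1 CPM. Markers of alpha cells had a median of -0.33 and of delta cells -0.35, but against their own references the 2 runs had -0.099 and -0.059 for alpha and -0.19 and -0.20 for delta cells. With TMM scaling the medians were -0.079 and -0.14. Sst, the delta cell hormone, had 1720 against 3095 CPM. Of 11 genes that mature beta cells are known to keep low, 2 were 2-fold lower: Igfbp4, an IGF-binding protein (4.56 against 12.4 CPM), and Aldh1a3, a marker of dedifferentiated beta cells (1.34 against 4.08 CPM). In that list 10 medians were lower in the 18 and 1 was higher. Its median was -0.77 over the 18, and -0.45 and -0.74 in the 2 runs against their own references. Without the libraries above 25% acinar counts, 1 of the 11 was 2-fold lower.

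Markers of stellate cells and fibroblasts had 6 of 10 genes 2-fold lower and 0 higher (5 lower with TMM scaling), with a median of -1.08 that was -1.12 in the first run and -1.05 in the second. Col3a1, a fibrillar collagen, had 18.4 against 51.8 CPM, Col1a1 had 8.18 against 22.5 CPM and Sparc, a matrix glycoprotein, 66.2 against 140.3 CPM. Summed over the list the 18 had 101.5 to 320.8 CPM and the 77 had 136.1 to 1659 CPM, so the sets overlapped. All 9 endothelial markers had lower medians in the 18, between -0.16 and -0.79, and none reached 2-fold; Pecam1 had 45.7 against 64.8 CPM. All 4 glial markers tested were lower too, with Gfap 2-fold lower at 0.291 against 1.10 CPM, though these levels are near the limit of detection. Macrophage and lymphocyte markers had 0 genes at 2-fold, and Cd3e of T cells was at 0.164 CPM or below in each of the 18.

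Acinar markers had a median of 0.58 over the 18 (1 of 22 genes 2-fold higher, 7 with TMM scaling), but 0.95 in the first run and -0.47 in the second, each against its own reference, and -0.18 over the 18 without the libraries above 25% acinar counts. The list thus had no single direction in the 18. Within it Amy2a3, a pancreatic amylase gene all of whose words occur in other amylase genes, had 20036 against 3450 CPM, was 2-fold higher in both runs and remained 1.69 higher without those libraries. Outside that list, Ctrc, chymotrypsin C, stood at 24.2 against 1084 CPM, a difference of -5.46, although 4 of the 18 were rich in acinar transcripts. Of the 77, 14 overlapped. Ctrc overlaps Cela2a on the same strand and shares 19.2% of its words with it, so its level holds some uncertainty.

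Of 18 interferon-induced genes, Rsad2, an antiviral enzyme (16.3 against 5.24 CPM), and Oas2, a sensor of double-stranded RNA (3.19 against 1.19 CPM), were 2-fold higher, while the list's median was 0.020 and Mx1 and Isg15 were at 0.661 against 1.21 CPM and 0.962 against 0.924 CPM. Among MHC class I genes H2-T22 was 2-fold higher (33.7 against 7.04 CPM), and it shares 67.4% of its words with other genes, 47.2% with H2-T10. The 10 immediate early genes listed had a median of -0.47, which was -0.17 in 17 to 24 and -0.98 in 49 to 58. Lists of the unfolded protein response and of proliferation had 0 genes at 2-fold, the latter although Pttg1, which is not on that list, was high.

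Over all tested genes the 18 libraries resembled each other more than the rest. Pairs within 17 to 24 had a median Spearman rho of 0.988, pairs within 49 to 58 had 0.986, pairs across the 2 runs 0.979 and pairs of the 18 with the 77 had 0.954. Each of the 18 had its nearest library within its own run, and the nearest library outside the 18 ranked 11th to 18th. Libraries 54, 55 and 57 had a higher median rho with the other run than with their own; 54 and 55 had over 25% acinar counts. Other pairs of number stretches had medians of 0.976 (1 to 8 with 34 to 39), 0.985 (9 to 16 with 40 to 48) and 0.985 (25 to 32 with 59 to 65), on both sides of the 0.979 of the 2 low-Nnt runs.

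**Figure D5:**
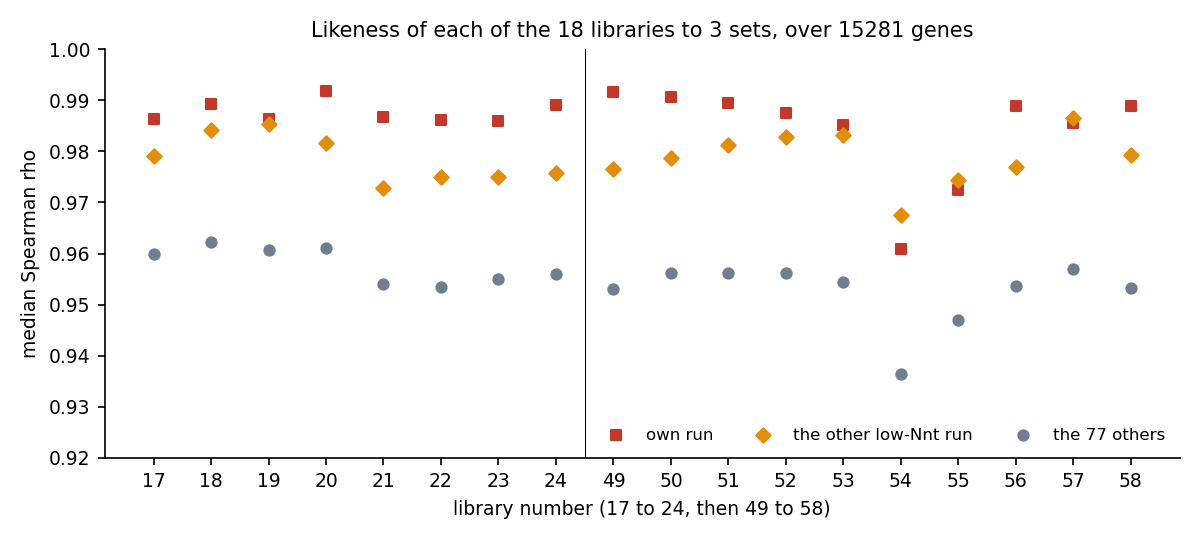
Median Spearman rho of each of the 18 libraries (horizontal axis, by number) with the libraries of its own run (squares), of the other low-Nnt run (diamonds) and with the 77 others (circles), over 15281 genes. For each library the circle is the lowest of the 3, and library 54 lies lowest on all 3.

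Like stretches of numbers were read by the same rule. It set apart 56 genes in libraries 1 to 8 with 34 to 39, 36 in 9 to 16 with 40 to 48 and 22 in 25 to 32 with 59 to 65. In the 18 it set apart 10. Those stretches hold 14, 16 and 14 libraries, and no overlap is harder to meet with 18, so the counts cannot be compared. These comparisons also share libraries in their references. By medians alone 665, 315 and 262 genes were 2-fold lower there and 381, 304 and 396 higher, against 320 and 152 in the 18. The 18 were also more spread than those stretches. The median standard deviation of a gene on the log2 scale was 0.41 within the 18, 0.35, 0.27 and 0.20 in the other 3, and 0.44 over the 77. Of the 15281 genes, 53.3% had a smaller standard deviation in the 18 than in the 77.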

How the data were processed

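Islet RNA was captured by its poly(A) tail and sequenced, per the labels' protocols. The authors deposited estimated counts per gene (20638 genes, 95 libraries, no normalization) and variance-stabilised values on a scale close to log2. The submitters' processing notes name GRCm38 and DESeq2; which aligner and counter were run, on which annotation release and with or without strand, is not given in the sources used here. Positions come from the deposited annotation table, and kinds of genes and shared 31-base words from GENCODE M21.

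The labels give no groups, so no test was run. CPM was the estimated count over the column sum; differences are of medians of log2(CPM + 0.5). Autosomal genes with a CPM of at least 1 in at least 10 libraries were kept (15281). A gene was called when 2 sets of libraries did not overlap and their medians differed 2-fold. On simulated counts this rule was tested before use. TMM factors came from edgeR 4.0.16 in R 4.3.3, and the rest was computed in Python 3.11.15 with pandas 2.3.3, numpy 2.4.6 and scipy 1.17.1. Levels below 0.001 CPM are written as 0. Depth limits low genes: 1 count is a small fraction of a CPM here, and estimated counts carry an assignment error of their own.

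The libraries, the gene lists and the rules were chosen with earlier results of these data known. Genes are named by rule: Nnt and its neighbours within 1 Mb, genes set apart or called, leading members of each list and leading differences between the runs. Genes close to being set apart, genes shared with other stretches of numbers, copies with their parents and further list members were picked after their values were seen. Some genes that meet these rules are not reported here. All columns were used. Alternatives were other scalings, pseudocounts, folds, filters and sets of libraries.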

Additional observations from a re-analysis of the deposited data

How the results depend on the processing

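Nnt differed by -1.35 on the log2 scale and by -1.24 with TMM scaling. The counts of genes moved more. Set-apart genes were 10 lower and 0 higher; they were 9 and 5 with TMM, 5 and 2 with the deposited variance-stabilised values, 16 and 4 without libraries above 25% acinar counts, 12 and 1 without libraries 91 to 100, 9 and 3 with totals that leave out acinar and hormone genes, 19 and 2 with at most 1 library on the wrong side, 4 lower among protein-coding genes only, and 17 and 3 for the run of 17 to 24 alone. Leaving out each of the 18 in turn gave 10 to 14 lower (14 without library 56) and 0 to 2 higher (2 without library 54). Without library 2, an alternative added after the data were seen, 11 were lower, Nnt among them. Nnt chose the 18 and library 2 was the only other that overlapped them there, so its place among the 11 was fixed in advance. Leaving out library 1, 4, 8, 89 or 94 also gave 11.

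Genes 2-fold lower and higher by medians, 320 and 152, were 74 and 56 with the variance-stabilised values, 608 and 254 with a pseudocount of 0.1, 141 and 76 with 2, 1122 and 477 at 1.5-fold, and 57 and 28 at 4-fold. The 84 genes called in 17 to 24 were 50 with the variance-stabilised values, 53 with a pseudocount of 2 and 34 at 4-fold. The 75 called in 49 to 58 were 147 with TMM, 36 at 4-fold, 49 among protein-coding genes and 203 without acinar-rich libraries. The 43 called in both were 70, 25, 26 and 77 under those 4 settings. The correlation of the 2 runs and the likeness of libraries moved little. No paired analysis was possible because the labels give no groups or replicate numbers. The cause of these shifts was not tested.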
